A study of Mus musculus with 1183 samples.

Results

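The cells described here are the macrophages labelled Mac IV, compared by their level of MHC class II. They were sorted from the lungs of mouse pups at postnatal day 7, and 63 came from a female and 79 from a male, among 1183 single cells of the series. Both pups had been in hyperoxia, so every group below shares that exposure and age. The labels name no genotype or strain, and pups in room air were not analysed here. The animal is the replicate (n = 2), and cells of an animal are not replicates of a condition.

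Cells were selected on H2-Ab1, in CPM (the reads of a gene scaled to the total of its cell). Within each animal the highest 21 female and 26 male cells formed the high group and the lowest 21 and 26 the low group, 94 cells in all, and the cells between were left out. H2-Ab1 had 0 reads in 86.6% of the Mac IV cells, so both limits of these ranked groups fell among tied cells. A further comparison was therefore added after the values were seen. It set the 19 cells with any H2-Ab1 read (11 female and 8 male) against the 52 female and 71 male cells with none. H2-Ab1 chose the cells in both comparisons and is described without a test. The subtype labels are the submitters' and may rest on the same cells' expression.

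MHC class II molecules sit on antigen-presenting cells and show peptides from engulfed proteins to helper T cells. H2-Aa and H2-Ab1 encode the alpha and beta chains of the mouse I-A molecule, and H2-Eb1 the beta chain of I-E. Cd74 encodes the invariant chain, which escorts new class II molecules to the endosome. There cathepsin S (Ctss) trims the invariant chain, and the H2-DM proteins exchange its last fragment for a peptide. The coactivator Ciita drives these genes together through factors bound at short shared promoter motifs, among them the Y box, a reverse CCAAT sequence. Macrophages of the lung interstitium are often divided into cells rich in MHC class II and cells rich in Lyve1, a hyaluronan receptor.

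The promoters of H2-Aa and H2-Eb1 are shown because both genes were found in the same cells as H2-Ab1 and both held a Y box. H2-DMa was also found in those cells, but its window did not hold the letters searched for. Each line gives the 150 bases before the start site, 5′ to 3′ on the strand of the gene, from RefSeq on GRCm38.p6, with the Y box letters CTGATTGG in capitals. H2-Aa lies on the minus strand (chr17:34287824-34287973) and H2-Eb1 on the plus strand (chr17:34305717-34305866).
H2-Aa: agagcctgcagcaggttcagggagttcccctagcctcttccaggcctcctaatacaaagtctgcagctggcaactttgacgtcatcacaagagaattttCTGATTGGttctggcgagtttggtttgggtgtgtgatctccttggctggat
H2-Eb1: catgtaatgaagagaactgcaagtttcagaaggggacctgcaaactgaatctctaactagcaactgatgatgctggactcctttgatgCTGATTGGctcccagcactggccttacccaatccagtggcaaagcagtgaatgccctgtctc
The motif began 51 bases before the start site of H2-Aa and 62 bases before that of H2-Eb1. On either strand it occurred in 1346 of 32851 promoter windows (4.10%), each from 250 bases before to 50 after a start site. Of 17 genes on the MHC class II list 12 had a window, and 4 of these held the motif: H2-Aa, H2-Eb1, H2-Eb2 and H2-Oa. The windows of H2-DMa, H2-DMb1, H2-DMb2 and Ctss were among those without it. A match describes letters and shows no binding.

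H2-Ab1 was either plainly present in a Mac IV cell or nearly absent. It stood at 50 CPM or more in 17 cells, from 618 to 15291 CPM with a median of 4866 CPM. The other 2 cells with reads, both male, had 1 read each (0.787 and 1.03 CPM). Reads were found in 17.5% of female cells (exact 95% interval 9.05 to 29.1%) and in 10.1% of male cells (4.47 to 18.98%). These intervals overlap. Intervals here cover only counting error over the cells of 1 animal, not variation between animals. No molecular identifiers are named for the reads. Mac IV cells held 112073 to 4837078 reads, with a median of 1450625. When every cell was thinned to 100000 reads, H2-Ab1 was found in 17 cells.

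**Figure D1:**
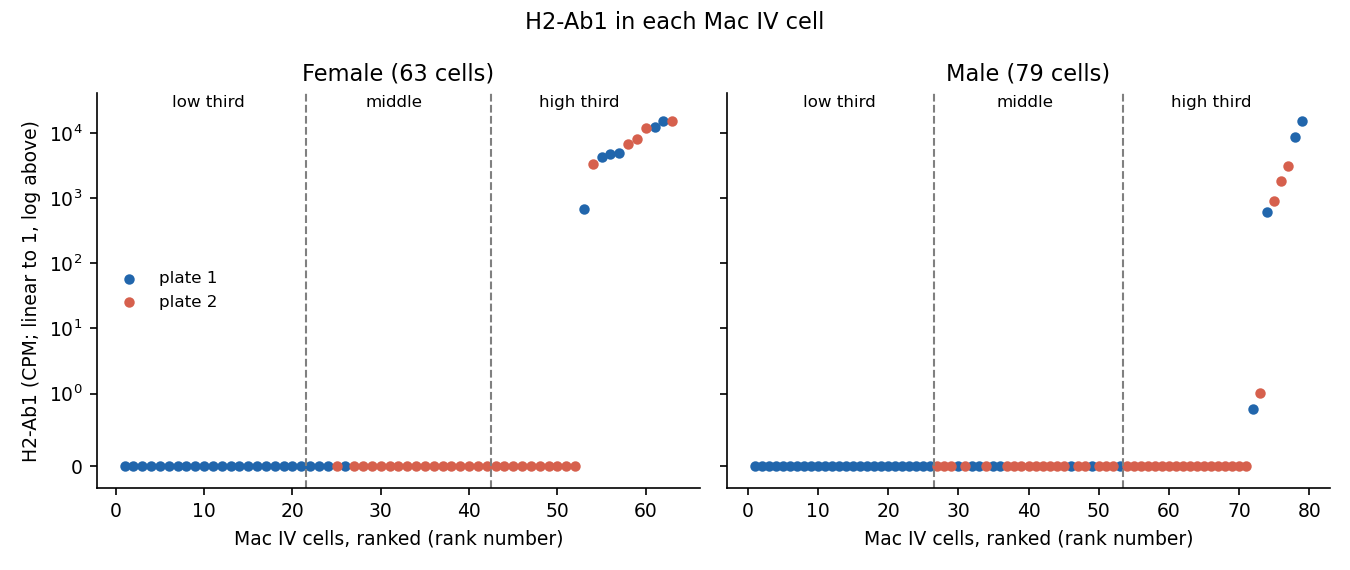
Each point is a Mac IV cell, ordered by rank within the female (left) and the male (right). The vertical axis is H2-Ab1 in CPM on a scale that is linear near 0 and logarithmic above, colours mark the plates and dashed lines the limits of the ranked groups. Both limits cross the run of cells at 0, and the 17 cells at 618 CPM or more lie at the high end.

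Among the labelled subtypes, the Mac IV cells with H2-Ab1 stood below the dendritic cells labelled DC I. All 16 female and 24 male DC I cells reached 50 CPM, with medians of 17670 and 19108 CPM. The 11 female and 6 male Mac IV cells at that level had medians of 6714 and 2460 CPM. B cells at that level had medians of 1157 and 2822 CPM, so the order of B cells and these Mac IV cells differed between the animals. Of the other macrophages, Mac II had 5 of 27 female and 3 of 20 male cells at 50 CPM. Mac III had 0.549% and 0%, and Mac V had 0 of 66 and 0 of 45. No test was made between subtypes.

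**Figure D2:**
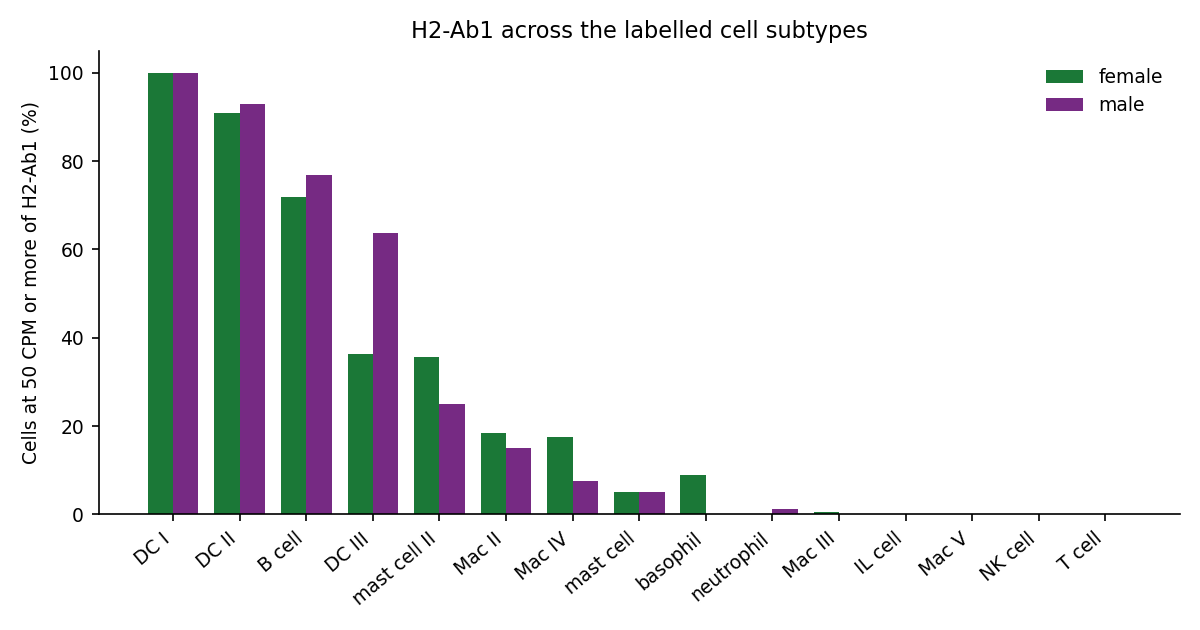
Bars give the percentage of cells at 50 CPM or more of H2-Ab1 in each labelled subtype, female and male side by side. DC I reaches 100% in both animals, and Mac IV reaches 17.5% in the female and 7.59% in the male.

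Cells with H2-Ab1 reads carried H2-Aa and Cd74 at high levels, and the cells without them nearly lacked H2-Aa. All 17 cells at 50 CPM or more of H2-Ab1 also had 50 CPM or more of H2-Aa, H2-Eb1, Cd74 and H2-DMa. H2-Aa ran from 677 to 17121 CPM in the female cells with reads (median 7538) and from 0 to 13934 CPM in the male ones (median 2732). The 2 male cells at 0 were those with a single H2-Ab1 read. Among cells without H2-Ab1 reads the highest H2-Aa value was 8.11 CPM and the medians were 0. Summed over cells, H2-Aa was at 10927 against 0.182 CPM for the female and 5597 against 0.0751 CPM for the male. The log2 fold change was 16.24 ± 0.47 (SE, n = 2 animals, edgeR adjusted p = 0.000426).

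Cd74 was also found in cells without H2-Ab1, at lower levels. It had reads in 34 of 52 female and 39 of 71 male cells without H2-Ab1, with medians of 26.03 and 15.8 CPM and highest values of 704 and 364.9 CPM. The 17 cells ran from 980 to 16832 CPM, above all of these. The 2 male cells with a single H2-Ab1 read had 13.4 and 22.8 CPM, inside the range of the others. Summed Cd74 was 10534 against 85.8 CPM (female) and 7019 against 50.7 CPM (male), a log2 fold change of 7.28 ± 0.34 (edgeR adjusted p = 0.00364). H2-Aa and Cd74 had been named with H2-Ab1 as marks of these cells, so the calls are no independent support for the split.

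H2-Aa and Cd74 were the genes called higher among 12211 tested (0.0164%), and 4 genes were called lower (0.0328%), at an adjusted p under 0.05. Of the 15 MHC class II genes tested beside H2-Ab1, 2 were called higher and 0 lower, with a median log2 fold change of 2.04 beside -0.42 over all genes. Over all 12211 genes 4541 differences were positive and 7670 negative, and 5300 genes were lower in both animals. The 4 libraries leave 1 residual degree of freedom with the animal as a block, and the count of 6 calls ranged from 27 to 984 when any 1 library was left out and the block dropped. It was 412 with DESeq2 and 81 with limma-voom, and the split of 2 higher and 4 lower became 6 and 5 with RLE size factors and 19 and 9 with cells scaled to equal totals. Unless a call is named, the genes that follow did not pass the test.

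H2-Eb1 lay at 292.5 CPM or more in all 11 female cells with H2-Ab1 reads (median 4891) and at 81.8 CPM or more in 6 of 8 male cells. Among the cells without, 1 male cell exceeded 10 CPM, at 79.5 CPM, and held 99.02% of the H2-Eb1 reads of its library. The log2 fold change was 13.89 ± 1.81 (edgeR adjusted p = 0.185). H2-DMa was more widespread: it stood at 10 CPM or more in 11 of 11 and 7 of 8 cells with reads, and in 26 of 52 and 33 of 71 without (2.96 ± 0.32, adjusted p = 0.0961). H2-DMb1 was found in 11 of 11 and 4 of 8 cells against 13 of 52 and 14 of 71 (4.48 ± 0.64, adjusted p = 0.247). H2-DMb2 was found in 9 of 11 and 2 of 8 against 10 of 52 and 4 of 71 (2.04 ± 0.70, adjusted p = 0.689). These 3 genes encode the chains of the peptide exchanger.

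Ciita, the coactivator, reached 10 CPM in 4 female and 1 male cell with H2-Ab1 reads and in 1 male cell without. All female Ciita reads lay in cells with H2-Ab1 reads. In the male the order was reversed, with a log2 ratio of -4.21. The male cell with H2-Ab1 reads stood at 11.45 CPM of Ciita and the one without at 218.2 CPM. The log2 fold change over both animals was 4.21 ± 15.62, so Ciita showed no shared direction. Ctss, the cathepsin, was in every cell with reads and in 51 of 52 and 71 of 71 without. Its summed level was 5000 against 1637 CPM for the female and 2904 against 2100 CPM for the male (log2 fold change 1.29 ± 0.38, adjusted p = 0.689). Cd74 and Ctss were thus present on both sides of the split, and H2-Aa and H2-Eb1 almost wholly on the side with H2-Ab1.

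**Figure D3:**
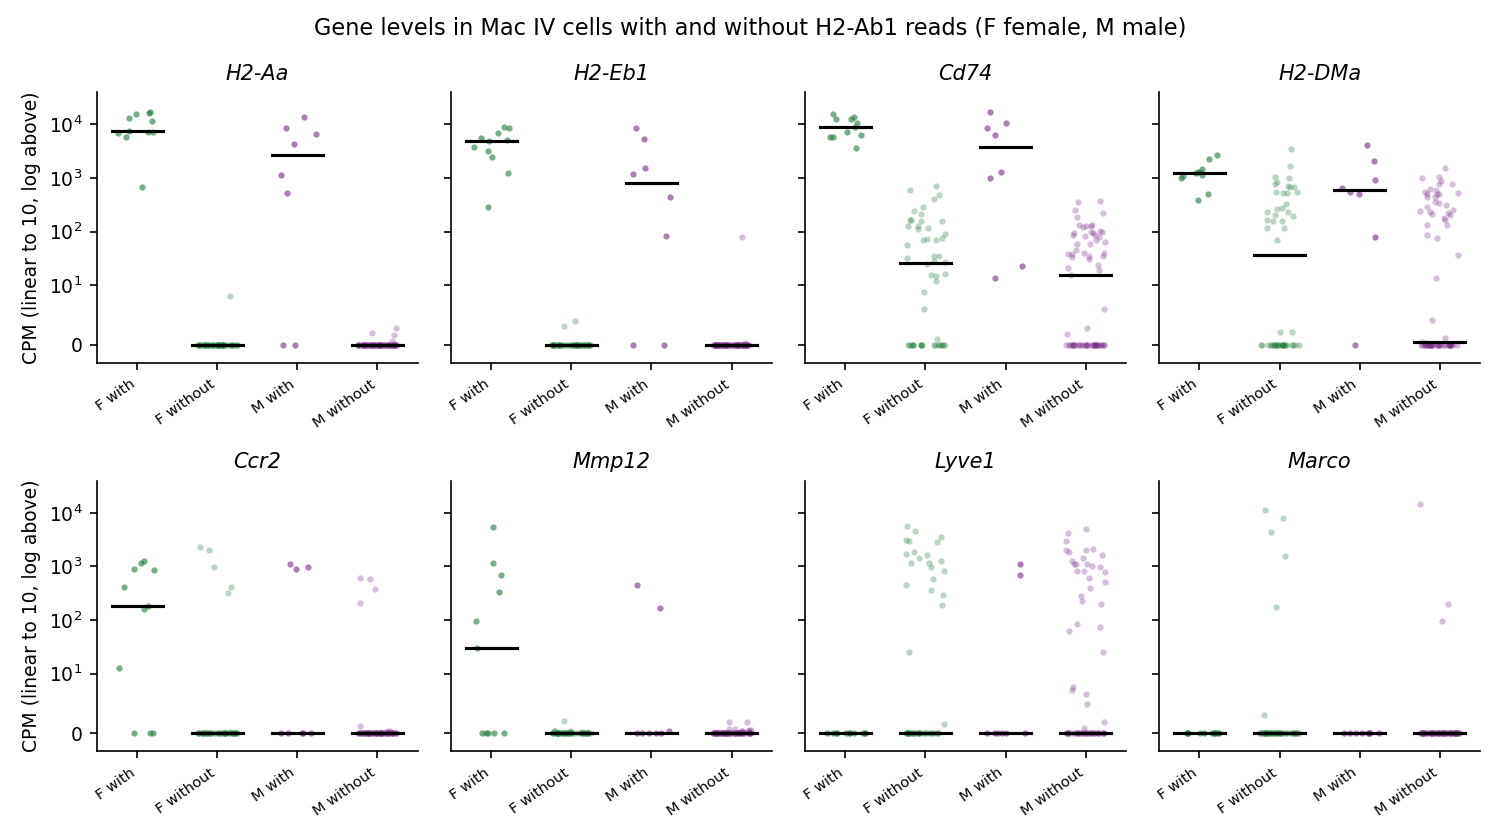
Each point is a Mac IV cell, in groups with and without H2-Ab1 reads in the female (F) and the male (M), with bars at the medians. The vertical axis is CPM on a scale that is linear near 0 and logarithmic above. H2-Aa medians are 7538 and 2732 CPM in the cells with reads and 0 in the others, while Lyve1 is at 0 in all 11 female cells with reads.

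Genes often linked to MHC class II macrophages of the lung interstitium had mostly positive differences, with 0 of 15 called. Of these 13 were positive, beside 4541 of 12211 over all genes, and the median log2 fold change was 1.18. Ccr2, the chemokine receptor by which monocytes leave the marrow, was at 10 CPM or more in 8 of 11 and 3 of 8 cells with reads and in 5 of 52 and 4 of 71 without. Its summed level was 511 against 61.4 CPM (female) and 535 against 32.2 CPM (male), a log2 fold change of 3.81 ± 0.40 (edgeR adjusted p = 0.0961). Itgax, the integrin CD11c, was found in 8 of 11 and 3 of 8 cells against 3 of 52 and 5 of 71 (3.71 ± 1.20, adjusted p = 0.689). Cx3cr1, the fractalkine receptor, did not follow this order, with medians of 561 against 803 CPM for the female and 476 against 765 CPM for the male.

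Several other genes, named after their values were seen, had a similar pattern of detection without a call in the main fit. Mmp12, the macrophage elastase, was at 10 CPM or more in 6 of 11 and 2 of 8 cells with reads and in 0 of 52 and 0 of 71 without. A single female cell at 5402 CPM held 67.3% of the Mmp12 reads of its library (log2 fold change 11.48 ± 1.13, adjusted p = 0.0760). Plbd1 was found in 8 of 11 and 4 of 8 cells against 9 of 52 and 7 of 71 (3.39 ± 0.37, adjusted p = 0.102). Rgs1, a brake on chemokine receptor signalling, was found in 8 of 11 and 3 of 8 against 10 of 52 and 17 of 71 (3.24 ± 0.40, adjusted p = 0.156). Lgals3, which encodes galectin-3, was found in 10 of 11 and 7 of 8 against 24 of 52 and 22 of 71 (2.56 ± 0.36, adjusted p = 0.247). Slamf7 was found in 6 of 11 and 2 of 8 against 0 of 52 and 1 of 71 (9.29 ± 1.25, adjusted p = 0.209).

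By the naming rule the next genes on the higher side, none called, began with the chemokine Ccl9 at a log2 fold change of 2.38 ± 0.29 (adjusted p = 0.152). Its summed level was 1959 against 516.5 CPM (female) and 1962 against 388.4 CPM (male). The others were Crip1 (1.67), Cd52 (2.05), Mcub (2.43), the actin-capping gene Capg (1.67), Herpud1 (1.55), the immunoglobulin mu gene Ighm (1.53), Adssl1 (2.04), Tns1 (2.92), Dok2 (1.29), the complement gene C1qb (1.10), Stard5 (1.70) and the saposin precursor Psap (1.35). Ighm and Dok2 were higher on 3 of 4 CD45 plates, and the other 11 of these genes on all 4. The rule took only genes higher in both animals, so the plates, as parts of the same libraries, are no independent support.

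Genes of the Lyve1 type of interstitial macrophage had mostly negative differences. Of 19 tested 0 were called, 18 were negative and 15 were lower in both animals, beside 7670 and 5300 of 12211 over all genes, and the median was -1.24. Lyve1 had 0 reads in all 11 female cells with H2-Ab1 reads, which allows a share of up to 27.3% (3 of 11), and stood at 10 CPM or more in 2 of 8 male ones. Among the cells without, 21 of 52 and 28 of 71 reached that level (log2 fold change -5.69 ± 4.01, edgeR adjusted p = 0.892). One of the male cells with Lyve1 was a cell with a single H2-Ab1 read. The other, at 1088 CPM of Lyve1, also carried markers of B cells and dendritic cells. F13a1, a coagulation factor subunit, was found in 1 of 11 and 3 of 8 cells against 33 of 52 and 46 of 71 (-2.39 ± 1.10, adjusted p = 0.689). Gas6, which links dying cells to the receptors Axl and Mertk, was found in 3 of 11 and 4 of 8 against 40 of 52 and 60 of 71 (-2.70 ± 0.91, adjusted p = 0.689). Fcna, which encodes ficolin A, was found in 1 of 11 and 2 of 8 against 23 of 52 and 37 of 71 (-3.52 ± 1.84, adjusted p = 0.702). Cd163, the haemoglobin scavenger receptor, was found in 0 of 11 and 2 of 8 against 16 of 52 and 26 of 71 (-5.64 ± 2.69, adjusted p = 0.689).

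Mrc1, the mannose receptor, and Stab1, a scavenger receptor, were present in both groups. Mrc1 had medians of 409 against 1056 CPM for the female and 1211 against 1565 CPM for the male (log2 fold change -0.81 ± 0.42, adjusted p = 0.704). Stab1 had medians of 138.6 against 1182 CPM and 306.1 against 1361 CPM (-1.81 ± 0.51, adjusted p = 0.689). The ranges of the 2 groups overlapped in both animals for both genes.

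**Figure D4:**
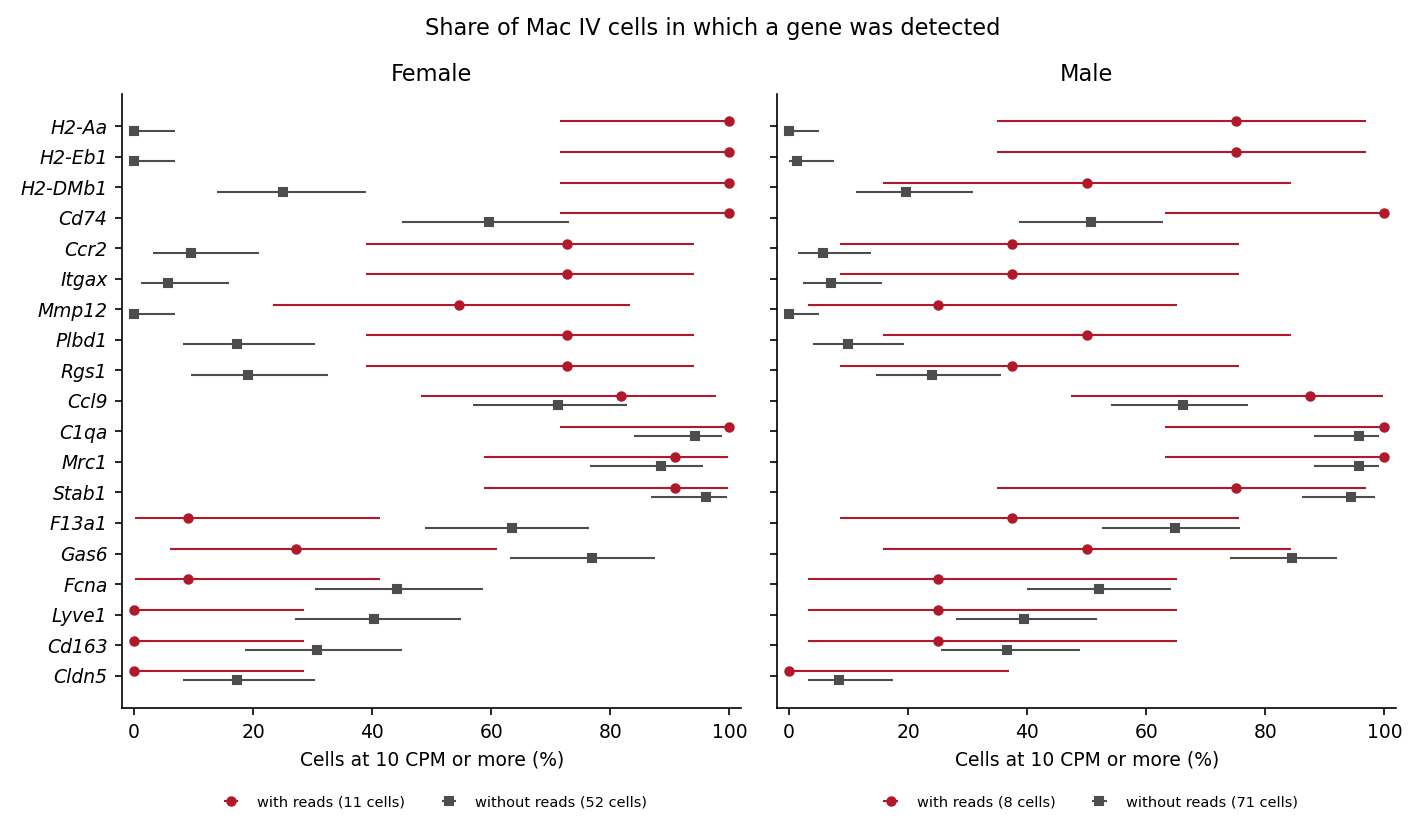
Points give the percentage of Mac IV cells at 10 CPM or more of each gene, with exact 95% intervals for counting error only, for cells with and without H2-Ab1 reads in each animal. H2-Aa is at 100% of female cells with reads and 0% without, and Lyve1 at 0% and 40.4%.

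The 4 genes called lower rested on few cells. Marco, a scavenger receptor, had reads in 6 female and 3 male cells without H2-Ab1 and in 0 of 19 with it, at least 6894-fold lower against 3 reads over the group (edgeR adjusted p = 0.00951). Those cells are 7.32% of their group, and 0 of 19 allows a share of up to 15.8% (3 of 19), so a difference in the share of Marco cells was not detectable. Saa3, an acute phase protein, had reads in 8 female and 10 male cells without H2-Ab1 and 1 read with it. A single cell held 98.2% of those reads in the female and another 99.3% in the male (adjusted p = 0.00444). For the haemoglobin genes Hbb-bs and Hba-a1, 1 cell held 99.7% and 99.8% of all reads (adjusted p = 0.0195 and 0.0258).

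The naming rule on the lower side gave no called gene. It began with the chemokine Ccl12, at a summed 109.9 against 723 CPM (female) and 243.2 against 1434 CPM (male), a log2 fold change of -2.39 ± 0.30 (adjusted p = 0.157). The others were Ccl7 (-2.28), Ly6e (-1.64), Egfl7 (-4.48), Smagp (-1.88), Nfxl1 (-3.44), Cavin1 (-5.19), Pxdc1 (-3.56), Nrep (-1.99), Idh2 (-1.27), Stab1 (-1.81), the cell cycle inhibitor Cdkn1a (-1.08), Fcrls (-1.58), Trib1 (-2.23) and Tcf4 (-1.23). All 15 were lower in cells with H2-Ab1 reads on each of the 4 CD45 plates. The rule took only genes lower in both animals, and the plates are parts of the same libraries. The plates are therefore no independent support.

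Egfl7 and Cavin1 are known from endothelial cells, and the summed level of lung structural cell markers was also lower in cells with H2-Ab1 reads. At least 2 of 6 such markers reached 50 CPM in 20 cells without H2-Ab1 reads and in 0 of 19 with them. Those 20 cells are 16.3% of their group, and 0 of 19 allows a share of up to 15.8%. A difference in that share was thus at the limit of detection. The summed level of the 6 markers was 25.7 and 84.7 CPM in the female and male cells with reads. In the others it was 266.7 and 134.9 CPM. Epcam and Cdh5 were at 0 in the cells with reads. Among the others Epcam had 4 reads in all, and Cdh5 had reads in 13.8% of cells. These zeros therefore do not show a lower share. Monocyte markers reached that count in 2 cells with reads and 3 without, and summed to 30.8 against 347.8 CPM for the female. Without cells carrying at least 2 markers of another class, Egfl7 went from -4.48 to -7.43 (edgeR adjusted p = 0.545) and Cavin1 from -5.19 to -3.74 (adjusted p = 0.896). In that fit 7 genes were called higher and 8 lower. Among the lower were Gas6 at -4.87 (edgeR adjusted p = 0.0187) and Ccl4 at -3.96. The higher were H2-Eb1 at 17.46, H2-Aa at 16.02, Cd74 at 7.18, Mmp12 at 11.74, Retnla at 10.94, Plbd1 at 3.93 and Rgs1 at 3.06. Lgals3 and Slamf7 were not called there.

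Both groups carried the genes that mark C1q macrophages. C1qa, a chain of complement C1q, had medians of 4345 against 3228 CPM for the female and 5735 against 5068 CPM for the male (log2 fold change 0.72 ± 0.26, adjusted p = 0.689). All 19 cells with H2-Ab1 reads had at least 2 of 4 such markers at 50 CPM. Of 21 complement and macrophage identity genes 0 were called, with a median of 0.34. Dendritic cell markers did not set the groups apart: at least 2 of 8 reached 50 CPM in 2 cells with reads and 14 without, and they summed to 111.4 and 183.7 CPM against 135.1 and 107.6 CPM. At least 2 of 4 B cell markers reached 50 CPM in 2 cells with reads and 0 without. Those cells, 1 in each animal, had 2822 and 831 CPM of Cd79a, a B cell receptor subunit, beside 677 and 1806 CPM of H2-Ab1, and their part in the results was not tested apart from the other marker-bearing cells.

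The other gene lists held no call apart from Marco, a member of 2 of them. The 27 interferon response genes had a median of -2.16 and the 17 chemokine genes of -1.53. With 20 and 12 of them negative, both shares lay near the 7670 of 12211 over all genes. Lower in both animals were 19 of 27 and 8 of 17, beside 5300 of 12211, and no list result is read from them. Of 20 scavenging genes 1 was called lower, Marco, and the median was -0.80. The 7 costimulatory genes had a median of -0.46 and the 19 MHC class I genes 0.17. Cd86, a costimulatory ligand, was found in 10 of 11 and 7 of 8 cells with H2-Ab1 reads and in 41 of 52 and 60 of 71 without. The 20 regulators had a median of 0.07, the 15 lysosomal proteases 0.33, the 25 oxidant and iron genes 0.44, the 24 cytokines -0.42 and the 19 immediate early genes -0.26.

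Of 20 cell cycle genes 0 were called and 17 were negative, beside 7670 of 12211 over all genes, with a median of -1.29. Lower in both animals were 10 of the 20, beside 5300 of 12211. Cells counted as cycling, with 5 reads or more of at least 4 of 10 cycle genes after thinning, were 1 of 11 and 1 of 8 with H2-Ab1 reads and 7 of 52 and 14 of 71 without. The exact intervals overlap, from 0.230 to 41.3% against 5.59 to 25.8% in the female. Median depth was 1764967 against 1207990 reads for the female and 1279941 against 1537739 for the male. Cells with H2-Ab1 reads came from all 4 CD45 plates.

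The ranked groups differed in more than H2-Ab1. The high group held the 11 and 8 cells with reads and a further 10 and 18 cells at 0, and the low group only cells at 0. The values just inside and just outside each limit were all 0 CPM. Tied cells were ordered by title, which follows the plate: 15 of 21 and 22 of 26 high cells came from the second CD45 plate, against 0 of 21 and 0 of 26 low cells. Among the tied cells rank and plate cannot be told apart. In the female the plates also came from different sequencing runs, DC28 and DC35. Genes detected at 100000 reads had medians of 3811 against 4061 in the female.

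Of 11913 genes tested between the ranked groups, 9 were called higher (0.0755%) and 7 lower (0.0588%). The higher genes were H2-Aa (log2 fold change 15.32, edgeR adjusted p = 0.000895), Cd74 (5.80, adjusted p = 0.00473), H2-DMb1 (3.83), Spp1 (4.26), Plet1 (14.25), Rgs1 (2.87), the V-ATPase subunit gene Atp6v0d2 (6.62) and the matrix proteases Mmp12 (9.42) and Mmp13 (11.58). The lower genes were Marco (-13.81), the phosphatidylserine receptor gene Timd4 (-5.65), Cxcl10 (-7.29), the complement gene C4b (-11.09), Ly6c2 (-11.69), Efnb2 (-11.20) and Plac8 (-4.12). A single cell held 98.3% of the Plet1 reads over both groups, 95.5% of those of Ly6c2, 91.9% of Cxcl10, 72.8% of C4b and 66.8% of Atp6v0d2. H2-DMa (1.93, adjusted p = 0.140) and Lgals3 (1.55, adjusted p = 0.570) were not called.

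Markers of some other cell classes differed between the ranked groups, and the share of marker-bearing cells differed mainly in the female. Cells with at least 2 markers of another class were 3 of 21 high and 9 of 21 low cells in the female, and 6 and 7 of 26 in the male. Monocyte markers, Ly6c2 among them, summed to 18.2 and 34.5 CPM in the high groups and 258.8 and 459.8 CPM in the low groups. At least 2 of them reached 50 CPM in 2 high and 2 low cells. B cell markers were higher in the high groups (137.7 and 111.7 against 60.6 and 94.2 CPM). T or NK cell markers differed in sign between the animals, at 0.063 against 38.4 CPM (female) and 96.4 against 5.16 CPM (male). At least 2 structural cell markers reached 50 CPM in 3 high and 10 low cells. Without the marker-bearing cells 3 genes were called higher and 3 lower, Marco among them (-18.96, edgeR adjusted p = 0.0157), and Cd74 was not called (5.99, adjusted p = 0.0946).

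Many of these calls changed with the order given to the tied cells. With that order reversed, 7 of the 16 called genes kept their direction, 7 reversed, and C4b and Ly6c2 were not tested. H2-Aa (14.26), Cd74 (6.39) and Mmp12 (10.85) were called under both orders. Reversal moves only cells at 0 CPM, so all cells with H2-Ab1 reads stayed in the high group. Those cells held 267486 of the 267488 H2-Aa reads of the high groups, and nearly all of those of Cd74. Reversal could therefore hardly lower these genes, and their calls under both orders are no independent support. H2-DMb1 (3.20), Rgs1 (2.00), Mmp13 (10.47) and Atp6v0d2 (2.03) kept their sign without a call. Marco went to 7.20, Timd4 to 1.29, Cxcl10 to 0.93, Efnb2 to 1.31, Plac8 to 0.89, Spp1 to -0.72 and Plet1 to -2.74, none of them called.

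**Figure D5:**
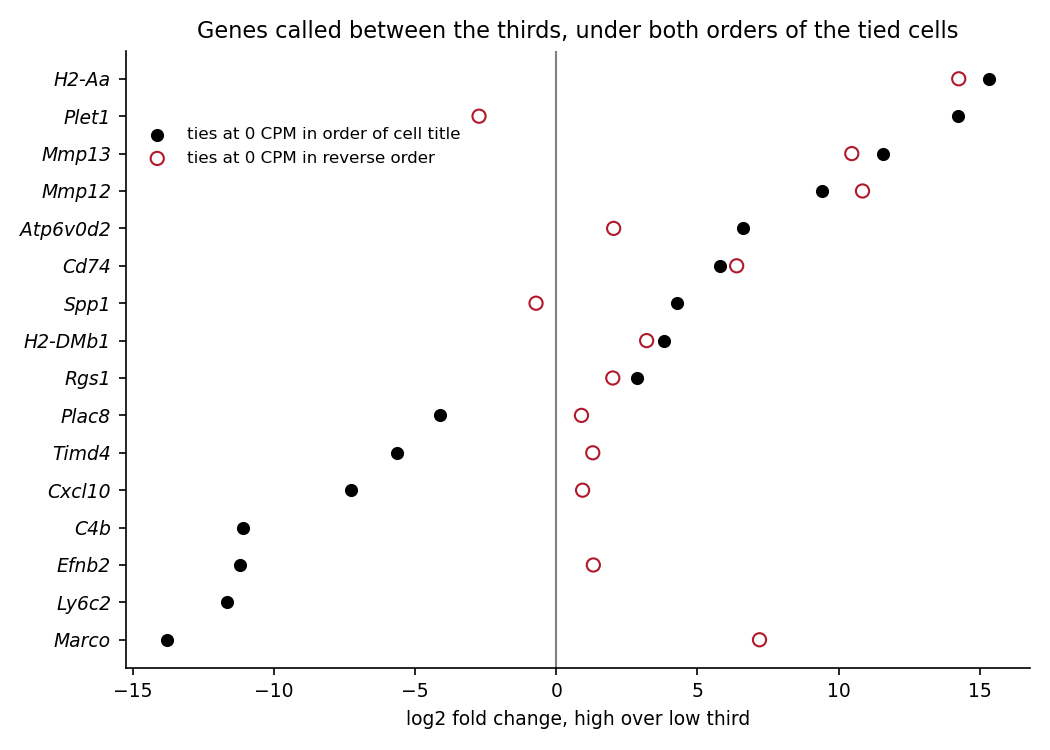
Each line is a gene called between the ranked groups, and the horizontal axis is its log2 fold change, high over low. Filled points order the cells at 0 CPM of H2-Ab1 by title and open points in reverse, and C4b and Ly6c2 have no open point. H2-Aa, Cd74 and Mmp12 stay to the right, and Marco moves from -13.81 to 7.20. The cells with H2-Ab1 reads are in the high group under both orders.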

How the data were processed

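Sorted single cells were made into Tn5 libraries, per the labels' protocols. The authors deposited raw read counts per gene for each cell. The submitters' processing notes list STAR 2.5.2b, HTSeq 0.10 and GRCh38, a human build name for mouse cells, with no role given, so no coordinates were taken with the counts.

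Counts were added up by animal and group into 4 libraries, of 11362258 to 106507540 reads for cells with and without H2-Ab1 reads and 30855815 to 41217639 for the ranked groups. They were tested with edgeR 4.0.16 in R 4.3.3 (quasi-likelihood, TMM, filterByExpr). The step was first run on simulated counts with less spread than the data and no animal effect. That run therefore does not show how often calls in these data are wrong. The animal was a block, since both groups of cells come from the same animal. P-values were Benjamini-Hochberg adjusted over all genes tested except H2-Ab1. Standard errors are the fold change over the root of F. Named genes were 15 in each direction: called genes by size, then the smallest p. They had to go the same way in both animals, with at least 50 CPM in the higher library of each animal, wide detection and no dominant cell. The members and lists were chosen with earlier results of these data known. The comparison by reads was added after the ties were seen, and 46 fits were made in all. Alternatives used DESeq2 1.42.0, limma 3.58.1, other filters, scalings and cell sets. No doublet caller was run.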

Additional observations from a re-analysis of the deposited data

Results flagged for a closer look

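Folr2, the folate receptor beta gene of tissue macrophages, differed in sign between the animals. Its log2 ratio, cells with over cells without H2-Ab1 reads, was -3.04 in the female (16.2 against 133.5 CPM) and 1.38 in the male (4 of 8 against 25 of 71 cells at 10 CPM or more). Spp1, which encodes osteopontin, did the opposite, with 3.22 in the female (245.7 against 26.4 CPM) and -1.57 in the male (65.8 against 195.1 CPM). The difference between the animals was not tested, since each has 1 library per group. In the male a single cell held 57.6% of the Folr2 reads and another 91.7% of the Spp1 reads among cells with H2-Ab1 reads.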

How the results depend on the processing

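The share of tested genes that was called moved with most settings. For the ranked groups it was 0.134% (16 genes). The setting of CD45 plates only removes 1 male cell of the low group, which came from a CD31 sort. Another tied cell takes its place. No replicate block, which drops the pairing by animal, gave 0 calls in edgeR (468 genes at an unadjusted p under 0.05), no cycling cells 0 (397) and all subtypes in the fit 0 (618). DESeq2 called 2.61%, limma-voom 0.0252% (3 genes), a mean of at least 10 CPM 0.0849% (7), CD45 plates only 0.0672% (8), the shared sequencing run 0.0360% (4), no cells with markers of another class 0.0548% (6) and thinned cells 0.451% (45). Ranking by 4 genes summed gave 0.0342% (4), a split at the median rank 0.0641% (8), smaller end groups 0.0620% (7), ranking within plates 0.0343% (4) and reversed ties 0.0595% (7). Leaving out 1 library gave 0.00767% to 0.0531%, or 1 to 7 genes.

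For cells with against without reads it was 0.0491% (6 genes). No replicate block gave 0.0246% (3), DESeq2 3.37% (412), limma-voom 0.663% (81), RLE size factors 0.0901% (11), no filter on low counts 0.137% (23), a mean of at least 10 CPM 0.0373% (3), equal cell totals 0.231% (28), the shared run 0.0262% (3), no marker cells 0.132% (15) and thinned cells 0.639% (65). All subtypes in the fit gave 0 calls (1113 unadjusted) and the first plates alone 0. Leaving out 1 library gave 0.213% (27 genes, without the female cells lacking reads), 0.300% (38, male lacking), 4.12% (580, male with reads) and 7.01% (984, female with reads). Those fits had no block and assume that the lone library varies like the others. The median log2 fold change over all genes went from -0.42 to -0.09 with no block and to -1.01 with no filter. The cause was not tested.

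Some signs turned. In the ranked groups Cxcl10 was 3.41 and Plac8 2.72 when 4 genes were summed. With ties reversed Cxcl10 was 0.93, Efnb2 1.31, Marco 7.20, Plac8 0.89, Plet1 -2.74, Spp1 -0.72 and Timd4 1.29. By reads, Dok2 was -0.03 in the shared run, Fcgr1 -0.03 on first plates, Folr2 0.13 with no replicate block and Spp1 -0.45 on second plates. Leaving out 1 library took Folr2 from -2.32 to 0.98, Mrc1 from -1.65 to 0.02 and Spp1 from -0.56 to 2.84. The female log2 ratio of median genes detected, high over low, was -0.09 in thinned cells and 0.10 with all reads. Of the values of 78 genes followed by reads, 83.3% stayed on their side of the threshold, 14.3% gained a call, 1.79% lost it and 0.556% reversed. For 22 genes of the ranked groups these shares were 52.9%, 3.29%, 41.98% and 1.85%. Most of the 78 genes were not called in the main fit, so staying mostly means staying uncalled. The 1.79% is thus not the rate at which calls were lost. Of the 6 genes called by reads, H2-Aa, Cd74, Saa3 and Marco were also called with DESeq2 and limma-voom. Hbb-bs and Hba-a1 were not (DESeq2 adjusted p = 0.104 and 0.126, limma-voom adjusted p = 0.074 and 0.0733).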
